A study of Mus musculus with 61 samples.

Results

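The comparison described here is the effect of IL-27 on CD4 T cells 14 to 16 h into culture. Its members are 8 of the 61 Affymetrix arrays of the series, chosen by title. HT_MG-430A arrays titled IL27-14, IL27-16 and IL27-16d are set against those titled ctrl-14, ctrl-16 and ctrl-16d, in pairs of equal time and suffix, and 1 IL27-16 and 1 ctrl-16 array of the Mouse430A_2 type serve as a check within their own table. The IL27 group is naive CD4 T cells of C57BL/6 mice stimulated through CD3 with IL-27 added, and the ctrl group is the same cells without IL-27, as the titles have it. The protocol in the labels lists antibodies to CD3 and, as written there, to CD8 at 1 ug/ml each, with IL-27 at 25 ng/ml. That wording, IL-27 included, also stands beside the ctrl arrays, whose source is likewise labelled as Tr1 cells, so the arm of every array rests on its title. Titles give times without a unit, read here as hours, and do not say what the suffix d means. Nothing in the labels ties arrays to separate cultures or animals. P-values therefore reflect only the spread of pair differences within time windows, pooled over 8 windows and possibly technical. Pairs of one window can also differ in time. The labels used here give neither age nor sex of the mice.

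IL-27 is a heterodimeric cytokine of the IL-12 family, made mainly by antigen-presenting cells. Its receptor pairs IL-27RA (gene Il27ra) with gp130 (gene Il6st) and signals through JAK kinases to STAT factors, among them STAT3, and is known to induce the T-box factor T-bet and genes shared with the interferons. In activated CD4 T cells IL-27 is known for promoting Tr1 cells, Foxp3-negative T cells that make IL-10, and for restraining other helper fates.

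All values are intensities on a linear scale as deposited. Differences are IL27 minus ctrl of log2(intensity + 32), averaged over the 3 pairs, which understates the change of dim genes. Medians of the 6 HT_MG-430A arrays lay between 31.0 and 32.6, and each of the 6 arrays correlated with at least 1 other array of the series at 0.991 or more over genes. IL27 and ctrl arrays of one pair deviated together from their group means, with correlations of 0.815, 0.656 and 0.706 over genes for the 14, 16 and 16d pairs, against -0.635 to 0.134 between arrays of unequal title. Deviations cancel over the 3 arrays of an arm, so the low values between unequal titles are partly built in. The 14 pair also differs from the others in time. The pair was kept as a block in 1 limma model over 48 arrays, 8 windows of 3 pairs each, and genes with a Benjamini-Hochberg adjusted p under 0.05 are termed called. Of 12291 named genes, 6496 passed the filter for dim genes and were tested.

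IL-27 changed 450 of the 6496 genes tested (6.93%), with 195 higher (3.0%) and 255 lower (3.93%) in IL27 than in ctrl arrays. Rises were the larger changes: 47 genes rose by at least 2-fold on the log2(intensity + 32) scale and 20 fell by as much, and the median change was 0.64 among genes called higher and -0.48 among genes called lower, against -0.02 over all genes tested. All 450 had the same sign in the 3 pairs, as did 55.0% of all genes tested. The 3 IL27 arrays did not overlap the 3 ctrl arrays for 362 of the 450, against 1358 of all 6496 (20.9%). Without the pair block the same model called 220 genes, 122 higher and 98 lower, all of them among the 450. With the 16 pair or the 16d pair left out, 242 genes were called in each case, and 311 without the 14 pair.

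**Figure D1:**
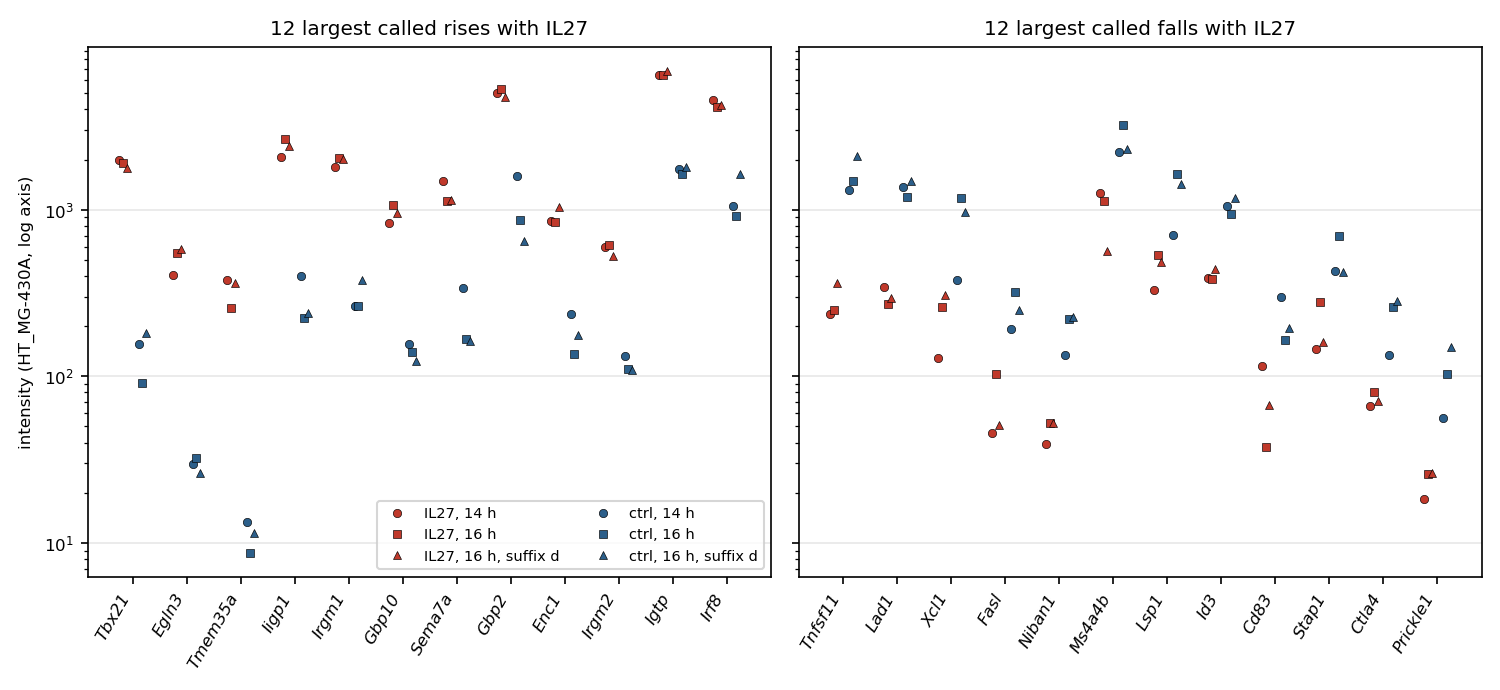
Intensity on a log axis of the 12 genes with the largest called rise (left) and the largest called fall (right), 1 point per HT_MG-430A array, IL27 in red left of ctrl in blue, with a marker for each pair. In all 24 genes the 3 IL27 arrays lie apart from the 3 ctrl arrays, as Tbx21 does at 1977, 1897 and 1778 in IL27 against 157, 91.3 and 183 in ctrl arrays. The genes were chosen for size and equal sign in the 3 pairs, so this separation follows largely from the choice. Groups did not overlap in 20.9% of all genes tested.

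The interferon-inducible GTPases were the gene group with the largest median. These proteins, the immunity-related GTPases (IRG) and guanylate-binding proteins (GBP), coat and disrupt vacuoles of intracellular pathogens. All 9 members tested rose, with a median difference of 2.03 and a range of 1.31 to 2.95, against 3.0% of all genes called higher. Irgm1, a regulator of the other IRG proteins, had 1805, 2034 and 2025 intensity units in the IL27 arrays (14, 16 and 16d), against 265, 265 and 380.1 in the ctrl arrays, a difference of 2.58 ± 0.21 (SE of the limma fit, adjusted p = 4.3e-09). Every IL27 array lay above every ctrl array. Igtp, which acts on the vacuole membrane, had 6472, 6461 and 6796 in IL27 and 1752, 1637 and 1797 in ctrl arrays, and its 3 values were close to each other within each arm (difference 1.91 ± 0.14, adjusted p = 7.2e-10). Irgm2, another regulator of the family, had 594, 612 and 531 in IL27 and 133, 111 and 109 in ctrl arrays (difference 2.03 ± 0.15). Iigp1, an effector IRG protein, had 2083, 2647 and 2402 in IL27 and 398, 223 and 239 in ctrl arrays (difference 2.95 ± 0.25). Its ctrl-14 array was the highest of the ctrl arrays, and its 3 pairs differed by 2.30, 3.39 and 3.17. Gbp2 was similar, with 5044, 5323 and 4757 in IL27 and 1593, 862 and 652 in ctrl arrays and pair differences of 1.64, 2.58 and 2.81. Gbp10 had 834, 1069.7 and 958 in IL27 and 156, 141 and 123 in ctrl arrays (difference 2.52 ± 0.29). The remaining members, Gbp3, Gbp7 and Gbp8, rose by 1.71, 1.55 and 1.31. With the 16d pair left out 8 of the 9 were called, and Gbp8 was not (adjusted p = 0.073).

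The promoters of 4 of these GTPase genes are printed to show letters that interferon-responsive promoters are known for. Only windows that hold a match were printed, so the matches in them follow from that choice. Windows run from 250 bases before to 50 bases after the gene start, on the gene's strand, from RefSeq (GRCm38.p6). Capitals mark TTCNNNGAA, the letters of a STAT site, or GAAA NN GAAA, the core letters of an interferon-stimulated response element, searched on both strands. The Irgm1 window is chr11:48871371-48871670 (minus strand), Igtp is chr11:58199306-58199605, Irgm2 is chr11:58214727-58215026 and Gbp2 is chr3:142620413-142620712 (plus strand).
Irgm1: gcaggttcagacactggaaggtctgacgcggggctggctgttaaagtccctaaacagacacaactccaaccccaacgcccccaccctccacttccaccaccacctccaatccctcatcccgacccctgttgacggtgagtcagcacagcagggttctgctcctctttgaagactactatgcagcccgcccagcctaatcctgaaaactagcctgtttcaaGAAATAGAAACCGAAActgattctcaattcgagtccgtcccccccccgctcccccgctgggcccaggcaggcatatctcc
Igtp: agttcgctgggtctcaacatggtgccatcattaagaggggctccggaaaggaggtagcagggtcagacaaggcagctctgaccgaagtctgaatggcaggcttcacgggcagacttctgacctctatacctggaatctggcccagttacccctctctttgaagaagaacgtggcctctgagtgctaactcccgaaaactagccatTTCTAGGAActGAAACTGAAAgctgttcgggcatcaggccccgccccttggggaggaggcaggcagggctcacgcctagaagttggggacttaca
Irgm2: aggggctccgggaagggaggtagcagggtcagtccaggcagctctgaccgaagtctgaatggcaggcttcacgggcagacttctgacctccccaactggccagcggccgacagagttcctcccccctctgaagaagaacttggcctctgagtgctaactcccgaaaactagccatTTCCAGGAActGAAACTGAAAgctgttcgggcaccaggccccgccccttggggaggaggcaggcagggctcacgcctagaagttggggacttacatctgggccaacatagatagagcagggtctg
Gbp2: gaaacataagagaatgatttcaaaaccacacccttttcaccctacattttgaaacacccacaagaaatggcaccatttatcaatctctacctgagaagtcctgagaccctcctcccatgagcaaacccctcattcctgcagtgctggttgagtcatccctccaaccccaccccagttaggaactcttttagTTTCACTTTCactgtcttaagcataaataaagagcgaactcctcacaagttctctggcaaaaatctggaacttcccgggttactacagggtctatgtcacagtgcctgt
In Igtp and Irgm2 a TTCNNNGAA match stands before a GAAA NN GAAA match, TTCTAGGAA before GAAACTGAAA in Igtp and TTCCAGGAA before GAAACTGAAA in Irgm2. The bases around these matches are nearly the same in both genes. Irgm1 has a pair of overlapping GAAA NN GAAA matches, GAAATAGAAA and GAAACCGAAA, and Gbp2 has the match on the opposite strand, read here as TTTCACTTTC. Over the promoter windows of all genes tested, TTCNNNGAA was found in 6.68% and GAAA NN GAAA in 3.18%, and over all 32851 windows of the table in 8.30% and 3.44%. Among windows of genes called higher, 25 of 203 (12.3%) held TTCNNNGAA and 19 of 203 (9.36%) held GAAA NN GAAA. Among windows of genes called lower, 14 of 287 (4.88%) and 8 of 287 (2.79%) did. Of the 12 largest rises 9 had a window. Those of Egln3, Sema7a, Tbx21 and Tmem35a held no match, and Irf8 held TTCNNNGAA alone. RefSeq windows matched 5394 of the 6496 genes tested by symbol, and a match describes letters, not a bound site.

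Of 11 IRF and STAT genes tested, 4 rose and 0 fell, with a median of 0.07, and of 13 genes of MHC class I presentation 8 rose and 0 fell, with a median of 0.29, against 3.0% of all genes called higher. Irf8, a factor of myeloid and lymphoid cells that interferon induces, had 4568, 4120.5 and 4251 in IL27 and 1053, 915 and 1645 in ctrl arrays (difference 1.86 ± 0.24, adjusted p = 4.9e-06). Irf1, which binds interferon-stimulated response elements, had 2176, 2145 and 2169 in IL27 and 699, 616 and 731 in ctrl arrays, so that the IL27 arrays were closely alike and their mean was 3.17 times the ctrl mean. Irf9, a DNA-binding factor of the type I interferon response, rose by 0.52 ± 0.09. Stat3, one of the transducers of the IL-27 receptor, had 966, 973 and 889 in IL27 and 463, 519.95 and 536 in ctrl arrays (difference 0.86, with 0.01 to 0.86 over its 3 probe sets). Psmb9, of the presentation genes, a subunit of the immunoproteasome, had 975, 1219.6 and 1153 in IL27 and 349, 350.4 and 385 in ctrl arrays (difference 1.54, 0.06 to 1.54 over 3 probe sets). Tap2, a subunit of the peptide transporter into the endoplasmic reticulum, rose by 1.01, Erap1, which trims peptides there, by 0.77, and Psmb8, another immunoproteasome subunit, by 0.64.

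Genes of the antiviral interferon response moved less as a group. Of 16 tested, 5 rose and 0 fell, with a median of 0.16, against 3.0% of all genes called higher. Zbp1, a sensor of unusual nucleic acids, had 301, 408 and 315 in IL27 and 111, 83.98 and 46.6 in ctrl arrays (difference 1.76 ± 0.29, adjusted p = 0.00017, 0.84 on its other probe set). Ifi47, itself an IRG-related GTPase, had 4250.1, 4576 and 4529 in IL27 and 1717, 2192 and 2019 in ctrl arrays (difference 1.17), and Bst2, which tethers budding virions, rose by 0.75 and Trim21, an intracellular antibody receptor, by 0.63. The fifth, Parp14, rose by 0.89, a call that ended with any 1 pair left out (adjusted p = 0.15 to 0.19). Several classical targets of type I interferon did not pass the test or the filter: Ifit2, which binds viral RNA, had 71.1, 93.7 and 81.4 in IL27 and 63.8, 96.5 and 92.6 in ctrl arrays, and Usp18, which removes ISG15 from proteins, had 41.2, 36.5 and 25.3 in IL27 and 33.9, 24.03 and 21.8 in ctrl arrays. Mx1 (10.8 to 11.7 in IL27 and 10.6 to 13.0 in ctrl arrays) and Rsad2 (12.0 to 17.4 in IL27 and 13.1 to 17.5 in ctrl arrays) lay below the array medians and were not tested.

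Of 14 tested genes listed as feedback of cytokine signalling, 5 rose and 0 fell, with a median of 0.23, against 3.0% of all genes called higher. Socs3, which blocks gp130 signalling, had 257, 287 and 291 in IL27 and 65.99, 67.02 and 53.3 in ctrl arrays (difference 1.72 ± 0.17, adjusted p = 9.6e-08), and Socs1, which inhibits JAK kinases, had 425, 411 and 396 in IL27 and 155, 113 and 118 in ctrl arrays (difference 1.47 ± 0.20). In both genes every IL27 array was far above every ctrl array. The list also holds Bcl3, an atypical IkB protein, which rose by 1.35, and Pim1, a kinase that STAT factors induce, which rose by 0.51. The fifth was Ptpn2, a phosphatase of JAK kinases (0.32), whose call ended with any 1 pair left out (adjusted p = 0.060 to 0.24). The receptor itself did not pass the test. Il27ra had 283, 301 and 279 in IL27 and 293, 294 and 280.03 in ctrl arrays (difference -0.01 ± 0.09), and Il6st had 300.4, 310.1 and 296 in IL27 and 361, 411 and 336 in ctrl arrays (difference -0.26 ± 0.12, adjusted p = 0.28).

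**Figure D2:**
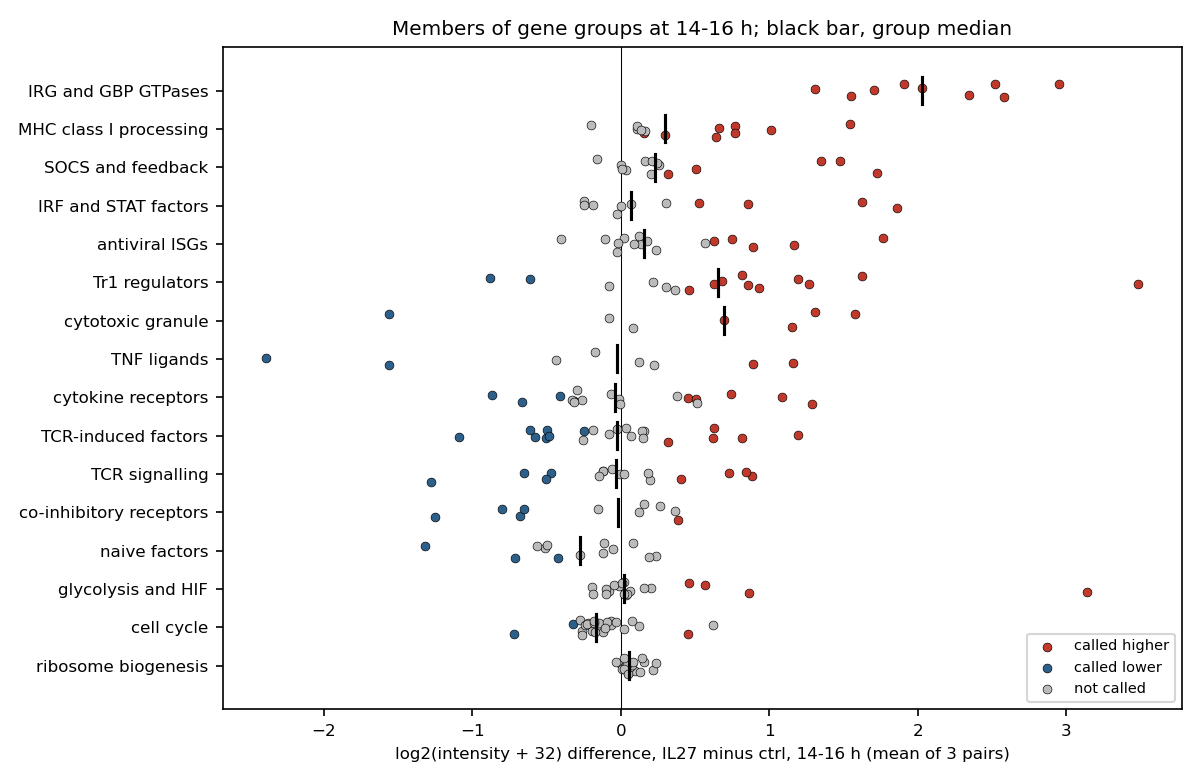
Difference IL27 minus ctrl at 14 to 16 h on the log2(intensity + 32) scale for each tested member of 16 gene groups, coloured by call, with the group median as a black bar. The 9 GTPases lie between 1.31 and 2.95, while the 22 ribosome biogenesis genes lie between -0.03 and 0.23.

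Among factors linked to Tr1 cells and IL-10, 10 of 16 tested rose and 2 fell, against 3.0% of all genes called higher and 3.93% called lower. Their median was 0.65. Tbx21, which encodes T-bet, the master factor of Th1 cells, had 1977, 1897 and 1778 in IL27 and 157, 91.3 and 183 in ctrl arrays. Its difference of 3.48 ± 0.33 was the largest of the 6496 genes in this model (adjusted p = 5.3e-08), and the 3 pairs gave 3.41, 3.97 and 3.08. Batf, an AP-1 family factor that opens chromatin with IRF4, had 521, 521 and 577 in IL27 and 265, 266 and 272 in ctrl arrays (difference 0.93 ± 0.15). Irf1, described above, is also on this list. Il21, a cytokine that sustains Tr1 cells, had 118, 52.6 and 103 in IL27 and 19.3, 17.02 and 17.2 in ctrl arrays (difference 1.26 ± 0.21, adjusted p = 0.00014), with the IL27-16 array the lowest of the IL27 arrays. Il21 passed the filter through its IL27 arrays alone. Egr2, which promotes IL-10 in CD4 T cells, had 722, 417 and 415 in IL27 and 385, 244 and 209 in ctrl arrays (difference 0.82). Ahr, the ligand-activated aryl hydrocarbon receptor, had 169, 178 and 235 in IL27 and 107, 83.9 and 139 in ctrl arrays (difference 0.68, 0.03 on its other probe set). Hif1a, the oxygen-regulated factor, rose by 0.46 (0.02 to 0.62 over 4 probe sets). Jun, a subunit of AP-1, rose by 1.19 (0.45 on its other probe set), a call that ended without the 16 pair (adjusted p = 0.051). Junb, another AP-1 subunit, rose by 0.63, a call that ended with any 1 pair left out (adjusted p = 0.064 to 0.12).

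The 2 members that fell were Bhlhe40, a repressor of Il10 in Th1 cells, and Nr4a1, a nuclear receptor induced by T-cell receptor signalling. Bhlhe40 had 408, 375 and 278 in IL27 and 783, 580.4 and 658 in ctrl arrays (difference -0.88 ± 0.14, adjusted p = 0.00016). Nr4a1 had 1003, 935 and 527 in IL27 and 1570.4, 1318 and 889 in ctrl arrays, groups that overlap although each pair fell (difference -0.61 ± 0.09). The other 4 tested were not called. Irf4, which pairs with BATF, had 4925, 4436 and 4338 in IL27 and 3918, 3666 and 3502 in ctrl arrays (difference 0.30 ± 0.17), and Icos, a co-stimulatory receptor, had 843, 1128 and 1057 in IL27 and 567, 907 and 889 in ctrl arrays (0.36 ± 0.12). Eomes, a T-box factor related to T-bet, had 55.1, 115 and 57.7 in IL27 and 46.8, 67.1 and 60.98 in ctrl arrays (0.22 ± 0.24), and Jund gave -0.08. Il10 itself was dim, at 13.5, 10.4 and 11.7 in IL27 and 10.8, 9.50 and 10.3 in ctrl arrays, below the median of every array. Maf (13.6 to 15.1 in IL27 and 13.8 to 14.6 in ctrl arrays), Prdm1 (15.3 to 18.7 in IL27 and 12.2 to 14.6 in ctrl arrays) and Nfil3, Egr3, Rora, Fosl2 and Ikzf2 also failed the filter and were not tested.

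Genes of other helper fates moved one by one. Gata3, the master factor of Th2 cells, had 41.4, 24.7 and 17.8 in IL27 and 68.3, 71.9 and 65.2 in ctrl arrays, a fall in all 3 pairs to near or below the array median (difference -0.76 ± 0.12, adjusted p = 7.3e-05). Ccl1, a chemokine of activated Th2 cells, had 92.1, 48.8 and 47.9 in IL27 and 193, 83.96 and 109 in ctrl arrays (difference -0.73), with the 14 h array the highest of each arm. Il4ra, a chain of the IL-4 receptor, rose by 0.51 (-0.03 to 0.51 over 3 probe sets) and Crlf2, a receptor chain for TSLP, by 0.38, though the Crlf2 call ended without the 16d pair (adjusted p = 0.18). Of 6 Th1 genes tested, Tbx21 and Il12rb1 rose, against 3.0% of all genes called higher. Ifng, the signature cytokine of Th1 cells, had 165, 184 and 260.4 in IL27 and 107, 44.7 and 82.4 in ctrl arrays. These groups did not overlap, but the fitted difference of 1.12 ± 0.41 did not pass the test (adjusted p = 0.13). Of 12 follicular helper genes 1 rose (Il21), and of 5 Th17 genes Batf and Ahr rose.

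Several of the largest rises were of genes on none of the lists above. Egln3, an oxygen-sensing prolyl hydroxylase that HIF induces, had 405, 553 and 582 in IL27 and 29.7, 32.5 and 26.1 in ctrl arrays (difference 3.14 ± 0.26, 1.94 on its other probe set). Its ctrl values lay near the array medians. Tmem35a, a chaperone of nicotinic acetylcholine receptors, had 378, 257 and 361 in IL27 and 13.4, 8.74 and 11.5 in ctrl arrays (difference 3.06 ± 0.17, adjusted p = 1.1e-11), and 2 of the 3 ctrl values lay below the lower quartile of their array. Tmem35a passed the filter through its IL27 arrays alone. Sema7a, a membrane-anchored semaphorin, had 1497, 1135 and 1140.0 in IL27 and 339, 167 and 163 in ctrl arrays (difference 2.39 ± 0.15, 1.08 on its other probe set). Enc1, an actin-associated kelch protein, had 849.9, 842 and 1035 in IL27 and 236, 137 and 176 in ctrl arrays (difference 2.15, 0.28 to 2.15 over 3 probe sets). Of 19 genes of glycolysis and HIF targets, 4 rose and 0 fell, with a median of 0.02, against 3.0% of all genes called higher. Besides Egln3 and Hif1a these were Pfkp, a phosphofructokinase (0.57 ± 0.11), and Hk1, a hexokinase (0.86 ± 0.21). The Hk1 call ended with any 1 pair left out (adjusted p = 0.068 to 0.10).

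Cytokines and TNF superfamily ligands moved in both directions. Lif, a cytokine that signals through gp130, had 560.4, 520.1 and 502 in IL27 and 191, 112 and 151 in ctrl arrays (difference 1.63 ± 0.18, adjusted p = 7.2e-07). Its other probe sets went down to -0.01. Lta, which encodes lymphotoxin alpha, had 2040.1, 2212 and 2434 in IL27 and 1060.5, 813 and 1086 in ctrl arrays (difference 1.16 ± 0.17). Tnf had 1183, 880.5 and 1151 in IL27 and 681, 480.1 and 532 in ctrl arrays (difference 0.89 ± 0.15). In Lta and Tnf every IL27 array was above every ctrl array. The 2 ligands that fell were Tnfsf11 and Fasl. Tnfsf11, which encodes RANKL, a ligand for osteoclast precursors and dendritic cells, had 238, 252 and 363 in IL27 and 1307, 1486 and 2089.9 in ctrl arrays. Its difference of -2.39 ± 0.14 was the largest fall of the 6496 genes in this model (adjusted p = 2.0e-11), and its other probe set gave -2.04. Fasl, the ligand of the death receptor Fas, had 45.5, 103 and 50.7 in IL27 and 192, 321 and 250.02 in ctrl arrays (difference -1.56 ± 0.19). The other ligands tested were not called: Ltb 0.12, Tnfsf8 0.22, Tnfsf9 -0.44 and Tnfsf14 -0.17. Il16, a ligand of CD4, had 132, 187 and 119.7 in IL27 and 179.8, 341 and 223 in ctrl arrays (difference -0.63, -0.27 on its other probe set), and the groups overlap. Il2 (6114, 4159 and 5357 in IL27 and 5575, 3232 and 4510.3 in ctrl arrays), Il3 (-0.79 ± 0.28), Mif (0.00) and Tgfb1 (0.08) were not called.

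Of 7 cytotoxic granule and NK-receptor genes tested, 4 rose and 1 fell, against 3.0% of all genes called higher and 3.93% called lower. The 1 that fell was Fasl, described above, which is on this list too. Gzmb, the protease granzyme B, had 257, 247 and 342 in IL27 and 126, 51.5 and 117 in ctrl arrays (difference 1.31 ± 0.20, adjusted p = 5.9e-05). Serpinb9, an inhibitor of granzyme B, had 607, 705 and 862 in IL27 and 188, 204 and 273 in ctrl arrays (difference 1.58 ± 0.21). Nkg7, a granule membrane protein, had 183, 486 and 474 in IL27 and 111, 143 and 175 in ctrl arrays, and its 14 h pair differed by only 0.59 against 1.57 and 1.29 in the 16 h pairs. The fourth was Serpinb6b, a related serpin (0.70), whose call ended without the 14 pair and without the 16d pair (adjusted p = 0.11 and 0.076).

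Receptor chains for cytokines were split, 5 higher and 4 lower of 18 tested, against 3.0% of all genes called higher and 3.93% called lower. Their median was -0.04. Il12rb1, a chain of the IL-12 and IL-23 receptors, had 549, 628 and 589.6 in IL27 and 185, 224 and 263 in ctrl arrays (difference 1.29 ± 0.15). Il2rb, the chain IL-2 and IL-15 share, had 249.8, 406 and 324 in IL27 and 84.7, 183 and 152 in ctrl arrays (difference 1.08 ± 0.17). Il21r rose by 0.74 and Il15ra by 0.46, the second call ending with any 1 pair left out (adjusted p = 0.074 to 0.29). Ifngr2, the signalling chain of the interferon gamma receptor, had 38.3, 30.2 and 34.2 in IL27 and 87.3, 85.5 and 93.4 in ctrl arrays (difference -0.87 ± 0.18, -0.14 on its other probe set), which put it near the array median in IL27 arrays. Il7r, the survival receptor of naive cells, had 176, 146 and 32.05 in IL27 and 262, 289 and 67.7 in ctrl arrays. It was low in both arms of the 16d pair, the groups overlap, and each pair fell (difference -0.66 ± 0.12, -0.27 on its other probe set). Il10rb fell by 0.41, a call that ended without the 16 pair (adjusted p = 0.17). Ifnar1 fell by 0.32, a call that ended with any 1 pair left out (adjusted p = 0.088 to 0.49). Il2ra (0.51 ± 0.22), Ifnar2 (0.38), Ifngr1 (-0.33), Tgfbr1 (-0.30), Tgfbr2 (-0.32), Il6ra (-0.07) and Il17ra (-0.01) were not called. Il12rb2, the IL-12 receptor chain that T-bet is known to induce, failed the filter at 14.9, 34.0 and 22.2 in IL27 and 11.6, 11.3 and 10.9 in ctrl arrays. With no filter its difference was 0.35 ± 0.13 (adjusted p = 0.21), and on the Mouse430A_2 arrays it read 169 in the IL27 and 31.5 in the ctrl array (difference 1.67). Intensities of that array type run higher, so these differences are not on a like scale.

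The other large falls were of genes with varied roles. Lad1, an anchoring filament protein, had 343, 273 and 293 in IL27 and 1372, 1198 and 1478 in ctrl arrays (difference -2.04 ± 0.18, adjusted p = 2.1e-08). Xcl1, a chemokine that draws cross-presenting dendritic cells, had 129.6, 260.4 and 307 in IL27 and 378, 1171 and 973 in ctrl arrays, with the 14 h pair lowest in both arms (difference -1.65 ± 0.16). Niban1, a stress-response gene, had 38.98, 52.5 and 52.6 in IL27 and 135, 220.4 and 227 in ctrl arrays (difference -1.48 ± 0.12). Lsp1, an actin-binding protein of leukocytes, had 328, 536 and 487 in IL27 and 706, 1641 and 1431 in ctrl arrays (difference -1.36 ± 0.18), again lowest at 14 h in both arms. Prickle1, a planar cell polarity gene, had 18.3, 26.04 and 26.3 in IL27 and 56.1, 103 and 149.8 in ctrl arrays (difference -1.22 ± 0.15), below the array median in all 3 IL27 arrays. Prickle1 passed the filter through its ctrl arrays alone. Ms4a4b, a membrane protein of T cells, had 1266, 1126 and 565 in IL27 and 2210.2, 3216 and 2312 in ctrl arrays. Its pairs differed by -0.79, -1.49 and -1.97, and its other probe set gave -0.14.

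Some regulators and surface receptors of T cells were also among the falls. Id3, an inhibitor of E proteins that is high in naive and memory precursor cells, had 388, 383 and 439 in IL27 and 1047, 941 and 1181 in ctrl arrays (difference -1.32 ± 0.16, adjusted p = 3.4e-06). Of 13 naive-cell factors 0 rose and 3 fell, against 3.0% of all genes called higher and 3.93% called lower. Besides Id3 these were Myb (-0.71) and Klf3 (-0.42). The Myb call ended without the 16 pair (adjusted p = 0.055), and the Klf3 call with any 1 pair left out (adjusted p = 0.11 to 0.35). Stap1, an adaptor next to the T-cell receptor, had 145, 278 and 160.4 in IL27 and 426, 693 and 424 in ctrl arrays (difference -1.28 ± 0.11). Cd83, a surface marker of activation, had 116, 37.8 and 67.1 in IL27 and 298, 165 and 195 in ctrl arrays (difference -1.28 ± 0.16). Ctla4, the inhibitory receptor for B7 ligands, had 66.5, 80.1 and 70.8 in IL27 and 134, 260.1 and 284 in ctrl arrays, with the IL27 arrays alike and ctrl-14 the lowest of the ctrl arrays (difference -1.25 ± 0.19, adjusted p = 6.7e-05). Of 10 co-inhibitory genes 1 rose and 4 fell, among them Cd96 (-0.80), a receptor for nectin-like ligands, Cd160 (-0.68, 0.02 on another of its 3 probe sets), and Vsir (-0.65), which encodes VISTA and whose call ended without the 16d pair (adjusted p = 0.16). The gene that rose was Pdcd1lg2 (0.38), the PD-1 ligand PD-L2, and its call ended without the 16 pair and without the 16d pair (adjusted p = 0.36 and 0.47). Lag3 (0.36) and Pdcd1 (-0.16), inhibitory receptors, were not called. Bcl2l11, the proapoptotic protein BIM, fell by 0.93, and that call ended without the 16 pair (adjusted p = 0.069).

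Genes of T-cell receptor signalling had no common direction. Of 21 early factors and feedback genes that the receptor induces, 5 rose and 7 fell (median -0.03), against 3.0% of all genes called higher and 3.93% called lower. Without the 16 pair 2 rose and 4 fell, without the 16d pair 3 rose and 3 fell, and without the pair block 3 rose and 1 fell. Dusp1, a phosphatase of MAP kinases, had 150.3, 87.9 and 83.6 in IL27 and 396, 189.9 and 223 in ctrl arrays (difference -1.09 ± 0.18), while Egr1, an immediate early factor, had 1306, 992 and 694 in IL27 and 749, 715 and 436 in ctrl arrays (difference 0.62 ± 0.11). Both were highest at 14 h in each arm. Of 16 genes of the receptor complex and its proximal signalling, 4 rose and 4 fell. Cd2, an adhesion receptor, had 1578, 1587 and 1291 in IL27 and 759.5, 996 and 643 in ctrl arrays (difference 0.88 ± 0.11), and Cd247, the zeta chain, rose by 0.84 (-0.03 to 0.85 over 4 probe sets). Prkcq and Zap70, kinases of the pathway, differed by 0.73 and -0.50.

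The labelled cell type was checked against its markers. CD4 T-cell markers were present on all 6 arrays, with 6 of 6 on the array passing the filter, and their summed intensity ran from 4265 to 6868 in IL27 and from 5282 to 9003 in ctrl arrays. None of the 6 rose and 3 fell, against 3.0% of all genes called higher and 3.93% called lower. These were Thy1 (239.5, 732 and 609.7 in IL27 and 506, 1564 and 1233 in ctrl arrays, difference -1.01), Cd4 (164, 271 and 217 in IL27 and 287, 451 and 341 in ctrl arrays, difference -0.65) and Cd3g (-0.47, adjusted p = 0.1 without the 14 pair). The Thy1 groups overlap, although each pair fell. Of the other lineages, Cd8b1 had 70.4, 65.4 and 72.7 in IL27 and 123, 131 and 145 in ctrl arrays (difference -0.70 ± 0.14), while Cd8a was dim. Ighm was the 1 of 8 B-cell markers that passed the filter, at 648, 1286 and 1017 in IL27 and 967, 1924 and 1519.8 in ctrl arrays (difference -0.56, and -0.58 to 0.08 over 11 probe sets). Its call ended with any 1 pair left out (adjusted p = 0.12 to 0.17). The summed B-cell markers ran from 748 to 1374 in IL27 and from 1074 to 2016 in ctrl arrays, and the CD8 markers from 76.3 to 83.1 in IL27 and from 136 to 158 in ctrl arrays. No marker of myeloid, NK or erythroid cells passed the filter, and their sums ran from 181 to 186, 63.4 to 70.7 and 66.7 to 70.6 in IL27 and from 178 to 179, 64.5 to 70.6 and 66.4 to 76.9 in ctrl arrays. The 4 MHC class II genes tested did not pass the test. The part of Cd8b1- or Ighm-bearing cells in the other changes was not tested, and in bulk RNA fewer cells of a type cannot be told apart from less RNA per cell.

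Of 27 replication and mitosis genes 1 rose and 2 fell, beside 6.93% of all genes called, and 0 were called without the 16 pair. The list had a median of -0.17, and 22 of its 27 members were negative. Cdk1, the mitotic kinase, had 79.4, 188 and 321 in IL27 and 102, 258 and 404 in ctrl arrays, lowest at 14 h in both arms, and its call ended without the 16 pair (difference -0.32, adjusted p = 0.14). Of 22 ribosome biogenesis genes 0 were called. Of 21 cholesterol genes 0 rose and 1 fell, beside 3.0% of all genes called higher and 3.93% called lower. It was Idi1, an isomerase of that pathway (-0.47), whose call ended with any 1 pair left out (adjusted p = 0.087 to 0.17). Of 19 genes of the amino acid and unfolded protein responses 2 rose: Sesn2, an inhibitor of mTORC1 (0.71 ± 0.11), and Atf3, a stress-induced factor (0.79, adjusted p = 0.12 without the 16 pair). Mt1, a metallothionein, had 141, 189 and 276 in IL27 and 59.5, 50.1 and 73.1 in ctrl arrays. The groups did not overlap, but the call ended with any 1 pair left out (difference 1.30 ± 0.38, 0.10 on its other probe set, adjusted p = 0.072 to 0.27).

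The Mouse430A_2 arrays gave the same direction for nearly all calls. They hold 1 array per arm at 16 h, so there is no test, and the labels do not say whether their RNA is that of an HT_MG-430A array. Of the 195 genes called higher, 194 were higher in the IL27 array of this type, and of the 255 called lower, 253 were lower, while 44.0% of all genes tested were higher. The exceptions were Cdk6 (0.45 on HT_MG-430A and -0.09 on Mouse430A_2), Sema4b (-0.35 and 0.08) and Stk4 (-0.28 and 0.16), whose HT_MG-430A calls all ended without the 16d pair (adjusted p = 0.10, 0.27 and 0.12). Past 1.5-fold in the same direction were 106 of the 195, against 1.86% of all genes, and 102 of the 255, against 2.02%, with 0 past 1.5-fold in the opposite direction. Over genes the differences of the array types had a Pearson correlation of 0.890, a description of genes that are not independent. Tbx21 read 3009 in the IL27 and 195 in the ctrl array (difference 3.74), Egln3 1928 in IL27 and 111 in ctrl (3.77), Iigp1 7862 in IL27 and 546 in ctrl (3.77), and Tnfsf11 191 in IL27 and 1223 in ctrl (-2.50). Xcl1, at 62.6 in the IL27 and 87.3 in the ctrl array, differed by only -0.34 there against -1.65 on HT_MG-430A. Both of these Mouse430A_2 values lay near the medians of their arrays, whereas the HT_MG-430A values of Xcl1 all lay well above theirs.

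**Figure D3:**
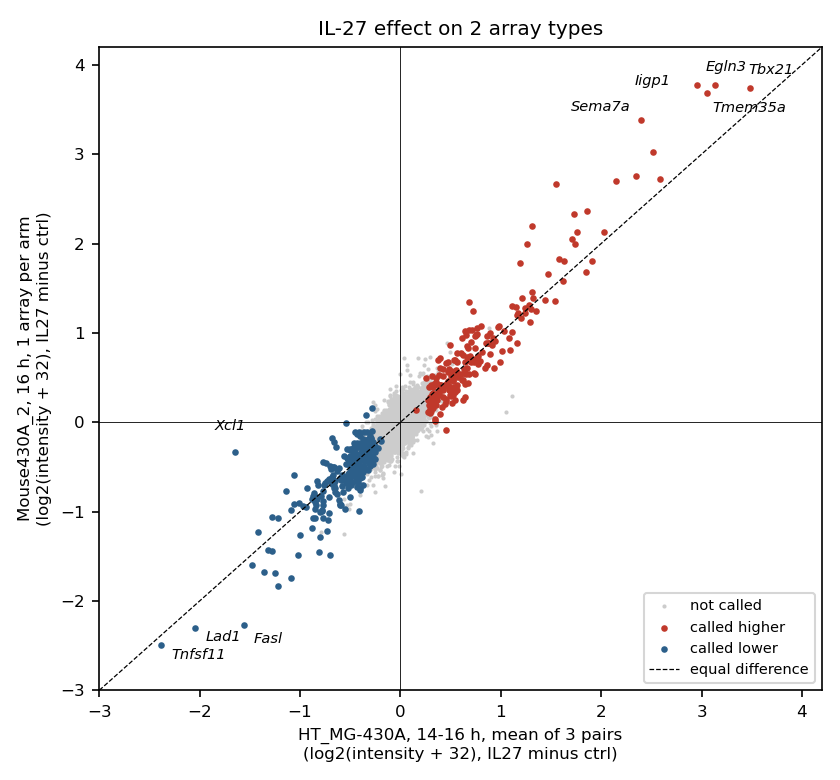
Difference IL27 minus ctrl on Mouse430A_2 at 16 h (1 array per arm, vertical) against the mean difference of the 3 HT_MG-430A pairs at 14 to 16 h (horizontal) for 6496 genes, both on the log2(intensity + 32) scale, with the dashed line marking equal differences. Nearly all called genes lie in the quadrants of equal sign, and Xcl1 stands off the line at -1.65 and -0.34. Its Mouse430A_2 values lay near the array medians. Intensities run higher on Mouse430A_2, so adding 32 shrinks differences of dim genes more on HT_MG-430A.

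The effect at 14 to 16 h was set against the windows before and after it, each of 3 pairs in the same model and sharing no array with it. The effect differed from that at 4 to 8 h in 41 genes (0.631% of those tested), 18 with a positive and 23 with a negative contrast, and 592 genes reached an unadjusted p under 0.05. Of the 41, 40 were called at 14 to 16 h, all with a larger change than at 4 to 8 h, and the filter used the 14 to 16 h arrays alone. The other, the selenoprotein gene Selenoh, was called in neither window (0.25 at 4 to 8 h and -0.18 at 14 to 16 h). The count fell to 18 without the 16 pair, 21 without the 16d pair and 10 without the pair block. Iigp1 had the largest positive contrast, with differences of 0.62 at 4 to 8 h, 2.95 at 14 to 16 h and 2.31 at 18 to 20 h (contrast with 4 to 8 h 2.34 ± 0.35, adjusted p = 0.00065). Tmem35a had 0.87, 3.06 and 2.74 in the same order of windows (contrast 2.19 ± 0.24, adjusted p = 1.7e-05), and Gbp2 had 0.46, 2.34 and 1.75. The median of the 9 GTPases was 0.59 at 4 to 8 h, 2.03 at 14 to 16 h and 1.30 at 18 to 20 h. Tbx21 was already high at 2.75, against 3.48 at 14 to 16 h and 2.14 at 18 to 20 h, and its contrast with 4 to 8 h was not called (0.74 ± 0.47, adjusted p = 0.69).

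Several falls were also larger at 14 to 16 h than at 4 to 8 h. Ctla4 had 0.46 at 4 to 8 h, -1.25 at 14 to 16 h and -1.63 at 18 to 20 h (contrast with 4 to 8 h -1.71 ± 0.27, adjusted p = 0.001). Lsp1 had 0.02, -1.36 and -1.46 in those windows, a contrast that was not called without the 16 pair (adjusted p = 0.054). Tnfsf11 had -1.01, -2.39 and -2.70, and Niban1 had -0.41, -1.48 and -1.64. Xcl1 (-1.46, -1.65 and -1.20) and Stap1 (-0.90, -1.28 and -1.23) were called lower at 4 to 8 h too, and their contrasts were not called. Batf (1.32, 0.93 and 0.87) and Il12rb1 (1.55, 1.29 and 0.80) had their highest value of the 3 windows at 4 to 8 h, again without a called contrast.

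Against 18 to 20 h limma called 0 genes (0.00%), with a smallest adjusted p of 0.107 and 124 genes at an unadjusted p under 0.05. Of the calls at 14 to 16 h, 362 (80.4%) were also called at 18 to 20 h, where they made up 51.6% of 702 calls, all with the same sign. With 4 to 8 h, 79 were shared (17.6% of the calls at 14 to 16 h and 71.2% of the 111 at 4 to 8 h), also all of the same sign. Genes called higher at 14 to 16 h had medians of 0.33 at 4 to 8 h, 0.64 at 14 to 16 h and 0.60 at 18 to 20 h, and genes called lower had medians of -0.17, -0.48 and -0.47. The values at 14 to 16 h in these lists chose the genes. Il21 had 0.70, 1.26 and 2.55 over the 3 windows and Igtp 0.64, 1.91 and 1.13, and neither contrast passed the threshold (contrast with 18 to 20 h -1.29 ± 0.29 and 0.78 ± 0.19, adjusted p = 0.4 and 0.6).

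**Figure D4:**
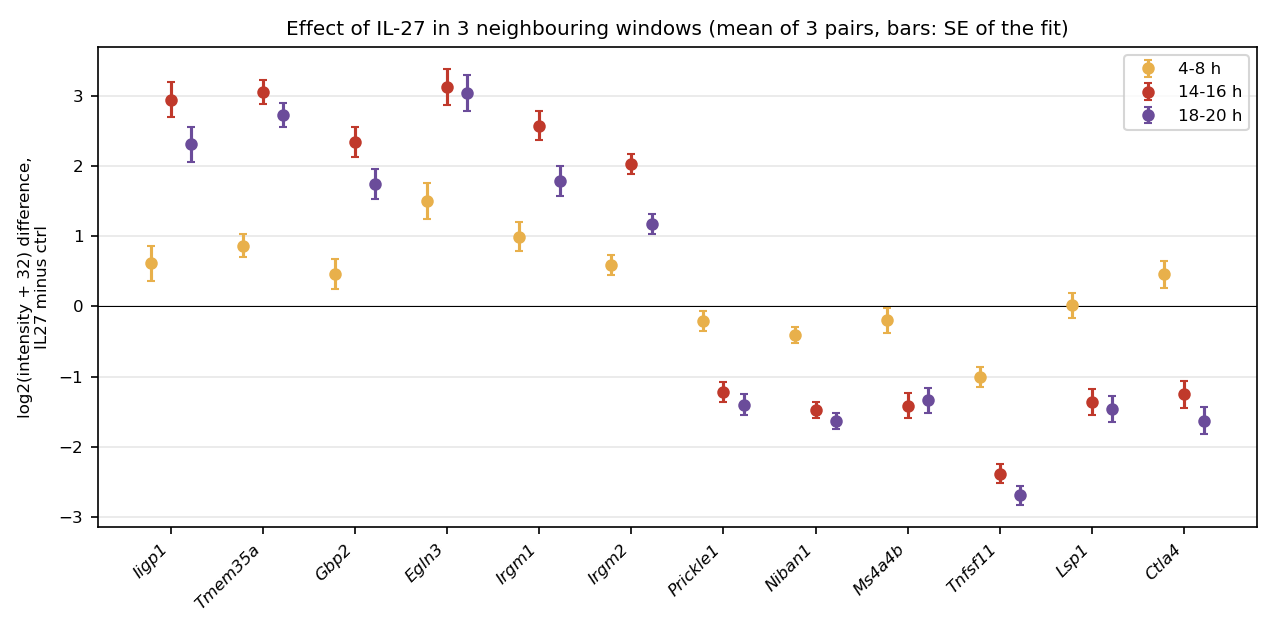
Difference of IL27 from ctrl in log2(intensity + 32) at 4 to 8 h, 14 to 16 h and 18 to 20 h for 12 genes. They have the 6 largest called contrasts each way between 14 to 16 h and 4 to 8 h. Points carry bars of 1 SE of the limma fit (3 pairs per window). The 14 to 16 h points lie farther from 0 than the 4 to 8 h points, as for Ctla4 at 0.46, -1.25 and -1.63 in order of time. The genes were chosen for this contrast, so the larger distance at 14 to 16 h follows largely from the choice.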

How the data were processed

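Transcript levels came from Affymetrix HT_MG-430A and Mouse430A_2 arrays of biotin-labelled cRNA from 6 ug of total RNA, per the labels' protocols. The authors' deposited tables give an intensity on a linear scale for 22626 probe sets. MAS5 is the tool named per the submitters' processing notes, with version, scaling and background settings not given in the sources used here. Array medians were alike, so no further normalization was applied, and array types were kept apart. The number of arrays limits the precision.

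Probe sets were named through the platform annotation: 20173 had 1 gene, and 942 with several and 1511 with none were left out. For each gene the probe set brightest over the 48 fitted arrays was used and kept if above its array's median on at least 3 of the 6 arrays. A gene above the median in 1 arm alone could thus pass, which favours genes that differ between the arms. Of 100 named called genes, 42 had several probe sets, and in Cd160, Cd247, Ighm, Il4ra, Lif and Tnfrsf1b these differed in sign. In others they differed in size, and not every such range is given. Log2(intensity + 32) was fitted with limma 3.58.1 in R 4.3.3 (time and suffix pair as a block, an IL27 coefficient for each of 8 windows, eBayes with an intensity trend, 16 residual degrees of freedom). Arrays of 0.5 and 12 h were left out. The code was tested on simulated data. Alternatives changed the pseudocount (1, 100), filter, normalization, probe-set rule, arrays, block and eBayes, and left out each pair.

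Named were the 12 called genes with the largest difference each way, the 6 largest called window contrasts each way, up to 4 called genes per list, the 5 with the most discordant pairs and every tested member of 4 lists. Members and lists were chosen with earlier results of these data known. Gbp3, Gbp7, Gbp8, Parp14, Ptpn2, Ifit2, Usp18, Mx1, Rsad2, Serpinb6b, Pdcd1lg2, Lag3, Pdcd1, Prkcq, Zap70, Sema4b, Stk4, Selenoh and Lpxn were named after their values were seen.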

Additional observations from a re-analysis of the deposited data

Results flagged for a closer look

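For 16 of the named genes the effect of IL-27 at 14 to 16 h differed from that at 4 to 8 h by the limma contrast itself (adjusted p under 0.05, log2(intensity + 32) scale), and in all 16 the effect was larger at 14 to 16 h. Most of the 16 were named for this contrast or for their difference at 14 to 16 h, and the filter used the 14 to 16 h arrays alone. The larger effect at 14 to 16 h therefore follows in large part from how the genes were chosen. Positive contrasts were 2.34 for Iigp1, 2.19 for Tmem35a, 1.88 for Gbp2, 1.63 for Egln3, 1.59 for Irgm1, 1.44 for Irgm2, 1.42 for Sema7a, 1.37 for Enc1 and 1.27 for Igtp. Negative contrasts were -1.71 for Ctla4, -1.38 for Lsp1, -1.38 for Tnfsf11, -1.22 for Ms4a4b, -1.07 for Niban1, -1.01 for Prickle1 and -0.61 for Il16. With the 16 pair left out 10 of the 16 contrasts were called, with the 16d pair left out 12, and without the pair block 8. Those of Egln3, Ms4a4b, Prickle1 and Il16 ended in each of these 3 settings.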

How the results depend on the processing

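None of the 450 calls at 14 to 16 h changed sign under any of the 13 alternatives, but most of these could not change it. Every pair of a called gene had the same sign, so leaving out a pair or changing the pseudocount could not reverse it. The filter, the arrays fitted, the block and eBayes do not alter a gene's difference. Only the other normalization and probe-set rule could have changed a sign. Between 388 and 496 genes were called under another pseudocount, filter, normalization, probe-set rule or eBayes setting or with the 36 arrays from 14 h on. The model over the 6 arrays alone, with 2 residual degrees of freedom, called 1591 (645 higher, 946 lower). With no replicate block 220 were called (122 higher, 98 lower), and the contrast with 4 to 8 h fell to 10 genes (8 positive, 2 negative). Leaving out each pair gave 242 to 311 calls (120 to 139 higher, 117 to 172 lower) and 18 to 41 for the contrast with 4 to 8 h (10 to 19 positive, 8 to 22 negative). The contrast with 18 to 20 h, at 0 calls, gave 1 with a pseudocount of 1 (0 positive, 1 negative) and 2 with 36 arrays (1 positive, 1 negative). These were Lpxn (adjusted p = 0.034 and 0.027, against 0.107) and Igtp (0.027, against 0.60). Leaving out 1 pair or another ended 253 of the 450 calls and 25 of the 100 calls named by rule. Besides those marked above the 25 were Cdk6, Tk1, Traf4, Traf5, Ccr7, Ski, Izumo1r and Tnfrsf1b. Tk1 and Traf4 ended without the 16 pair (adjusted p = 0.22 and 0.15), and Ccr7, Ski and Izumo1r without the 16d pair (0.094, 0.19 and 0.32). Cdk6, Traf5 and Tnfrsf1b ended with any 1 pair left out (highest adjusted p = 0.17, 0.25 and 0.19). Of those given with 1 pair, Cd3g, Cdk1, Crlf2, Izumo1r, Ski, Tk1, Traf4 and Vsir ended without 1 other pair too. Without the pair block 25 of the 100 named calls ended as well. Among them were Egr1, Il16, Il4ra, Il7r, Nkg7 and Nr4a1, whose calls held with any 1 pair left out. The cause of these changes was not tested. With no filter, dim Il10 and Il12rb2 differed by 0.06 and 0.35 and were not called.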
